A study of Saccharomyces cerevisiae with 12 samples.

Results

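The genes of ergosterol synthesis and sterol uptake were examined as a group of 33, taken by gene symbol out of 6775 in the count tables of a Saccharomyces cerevisiae RNA-seq study of Cyc8p, a subunit of the Tup1-Cyc8 corepressor. The strain (Cyc8-AA) allows Cyc8p to be pulled out of the nucleus by rapamycin, a method named anchor-away, and the study compared depletion in cells that clump into flocs (Flo+) with depletion in cells kept apart by mannose (Flo-), a sugar that blocks the flocculins. Samples fell into 4 groups of 3 biological replicates: -Rap and +Rap without mannose, and -Rap+Man and +Rap+Man with mannose. The +Rap and +Rap+Man cultures received rapamycin at 1 µg/ml for 4 h, and the -Rap and -Rap+Man cultures received DMSO, the solvent. All 4 groups were the same Mata strain of the HHY221 background in log phase, so that every sample, controls included, carried tor1-1 and fpr1::loxP-LEU2-loxP (which make cells insensitive to rapamycin), the ribosomal anchor RPL13A2xFKBP12::loxP and the tagged allele CYC8-FRB::HIS3. The cells were grown in rich medium at 30 °C.

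The samples held between 26125728 and 30562700 counts in the Flo+ experiment and between 35905327 and 51088194 in the Flo- experiment. The experiments were sequenced at different times, with paired-end reads for Flo+ and single-end reads for Flo-, so that mannose, flocculation, run and read type cannot be told apart wherever the experiments are set side by side. Anchor-away moves the protein and leaves the gene in place, so the CYC8 mRNA does not check the depletion. CYC8 had 2347, 2152 and 1712 normalized counts in the -Rap samples and 2459, 2921 and 2861 in the +Rap samples, and 1988, 2194 and 1852 against 1415, 1820 and 1574 with mannose. The mating pheromone receptor gene of MATa cells, STE2, had at least 5799 raw counts in every sample, and the receptor gene of the opposite mating type, STE3, had at most 172.

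Ergosterol is the main sterol of yeast membranes. It is built from acetyl-CoA through the mevalonate pathway, squalene and lanosterol, and several late steps use molecular oxygen and heme, so cells without oxygen cannot make it and import sterol from the medium instead. Import depends on the ABC transporters Aus1 and Pdr11. The zinc cluster activators Upc2 and Ecm22 bind sterol regulatory elements and act on synthesis and uptake genes, Sut1 favours uptake, and surplus sterol is stored as steryl esters made by Are1 and Are2. Tup1-Cyc8 has no DNA-binding domain of its own and is brought to hypoxic genes by repressors such as Rox1.

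The stretches below lie before the start codons of 9 members, all of which were higher after depletion in both experiments. They are shown because they hold matches to letters that Upc2, Ecm22 and Rox1 are known to recognise, and members that fell also had matches (below). Each is read 5′ to 3′ on the strand of its gene from the RefSeq genome (assembly R64), and capitals mark exact matches on either strand.
ARE1: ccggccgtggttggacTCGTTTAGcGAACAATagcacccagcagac
PDR11: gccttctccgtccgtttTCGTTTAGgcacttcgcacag
UPC2: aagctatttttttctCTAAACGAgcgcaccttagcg
NCP1: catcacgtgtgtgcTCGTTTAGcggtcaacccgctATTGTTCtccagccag
HMG2: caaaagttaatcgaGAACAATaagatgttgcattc
ERG1: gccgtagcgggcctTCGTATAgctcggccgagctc
ERG3: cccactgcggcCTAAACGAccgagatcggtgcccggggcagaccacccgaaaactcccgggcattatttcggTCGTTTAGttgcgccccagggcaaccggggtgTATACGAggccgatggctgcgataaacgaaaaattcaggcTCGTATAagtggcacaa
ERG25: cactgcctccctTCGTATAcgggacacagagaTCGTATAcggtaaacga
ERG28: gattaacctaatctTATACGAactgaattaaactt
The capitals in ARE1, NCP1 and HMG2 include the Rox1 core (ATTGTTC, read as GAACAAT on the other strand). Those in PDR11 and UPC2, and the first match in ARE1 and NCP1, are an element found before genes of anaerobic growth (TCGTTTAG or TCGTTCAG, with no overlap with the other motifs). In ERG1, ERG25 and ERG28 they are the core of the sterol regulatory element (TCGTATA), and ERG3 holds 2 matches of the anaerobic element followed by 2 of the sterol regulatory core. The stretches are at chrIII:211759-211804 (+ strand), chrIX:332852-332889 (- strand), chrIV:889376-889411 (+ strand), chrVIII:190298-190348 (+ strand) and chrXII:1032381-1032415 (+ strand), and at chrVII:848785-848819 (- strand), chrXII:253431-253591 (+ strand), chrVII:610069-610117 (+ strand) and chrV:238274-238308 (- strand).

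All 3 motifs were searched in the 500 bases before the start codon of every protein-coding gene with a full window (6019 genes), a window that can reach into a neighbouring gene. The sterol regulatory core was present before 9 of 33 members (27.3%) and 6.98% of all genes, the anaerobic element before 13 of 33 (39.4%) and 3.17%, and the Rox1 core before 9 of 33 (27.3%) and 11.8%. At least 1 of the 3 was found before 24 members, and the share of all genes with at least 1 was not counted. Among the 15 genes from squalene to ergosterol, 6 had the sterol regulatory core, whereas none of the 3 regulator genes and neither uptake gene had it. ERG1 carried 3 Rox1 cores within the last 86 bases before its start codon. Matches also lay before members that were lower after depletion in both experiments. These included the sterol regulatory core before ERG6 and ERG2, and the anaerobic element before ERG7 and MVD1. AUS1, SUT1, ARE2, HMG1 and ERG12, all of which changed in the comparisons below, were among the 9 members with no match to these letters in this window. A match describes the sequence and does not show that a factor binds there.

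**Figure D1:**
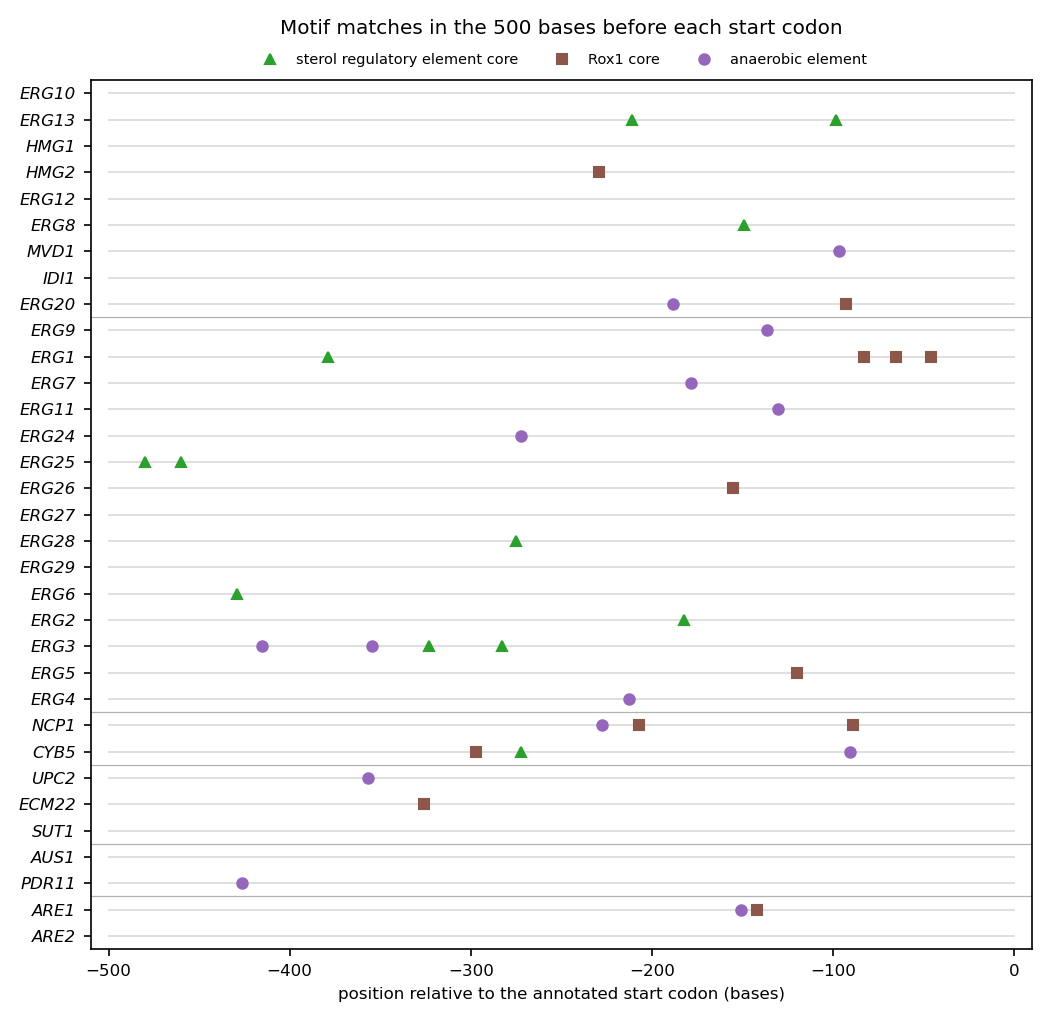
Positions of exact matches to 3 motifs before the start codons of the 33 genes (horizontal axis, bases relative to the start codon; symbols give the motif, and lines separate roles in the pathway). Matches were found before 24 genes, with 4 each before ERG1 and ERG3 and none before AUS1 or SUT1. The share of all genes with any match was not counted.

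Levels are given as normalized counts, which are raw counts scaled by TMM factors, set so that the bulk of genes has the same level in all samples. A fold change is therefore relative to the typical gene. The test was limma on log2(normalized count + 2) over all genes, two-sided, with Benjamini-Hochberg adjustment, and a gene was called up- or downregulated when the adjusted p was 0.01 or less and the log2 change was 1 or more in either direction. By these thresholds 6 members were upregulated and 4 downregulated by Cyc8p depletion in Flo+, where 11.0% of 6100 genes were upregulated and 2.08% were downregulated. In Flo-, 11 members were upregulated and 5 downregulated, against 14.8% and 2.59% of 6325 genes. The 6 upregulated in Flo+ (UPC2, ECM22, SUT1, AUS1, PDR11 and ARE1) were also upregulated in Flo-, and ERG12, ERG6 and ARE2 were downregulated in both. All 33 members passed the filter on low counts, and the lowest raw count of any member in any sample was 243, for SUT1.

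Several calls depended on the scaling. With total counts in place of TMM factors, a setting added after the data were seen, the median log2 change over all genes moved from -0.02 to -0.36 in Flo+ and from -0.04 to -0.65 in Flo-. Upregulated members then numbered 6 in Flo+ and 4 in Flo- (ERG28, SUT1, AUS1 and PDR11), and downregulated members 8 and 12. Over all genes, 504 of 6100 were then upregulated and 499 downregulated in Flo+. In Flo- these numbers were 595 and 1782 of 6325 genes, so the downward shift was general. In Flo- the regulators UPC2 and ECM22 then stood at 0.75 and 0.80, ARE1 at 0.95 and NCP1 at 0.51, all under the fold threshold, as did the enzymes ERG1, ERG3 and ERG25 at 0.99, 0.65 and 0.54. As a share of all counts, the 5 uptake and regulator genes together made up 0.0191% to 0.0195% in the -Rap samples and 0.0972% to 0.109% in the +Rap samples, and 0.012% to 0.0138% against 0.039% to 0.0431% with mannose. These shares use no TMM factor, and the groups did not overlap in either experiment.

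**Figure D2:**
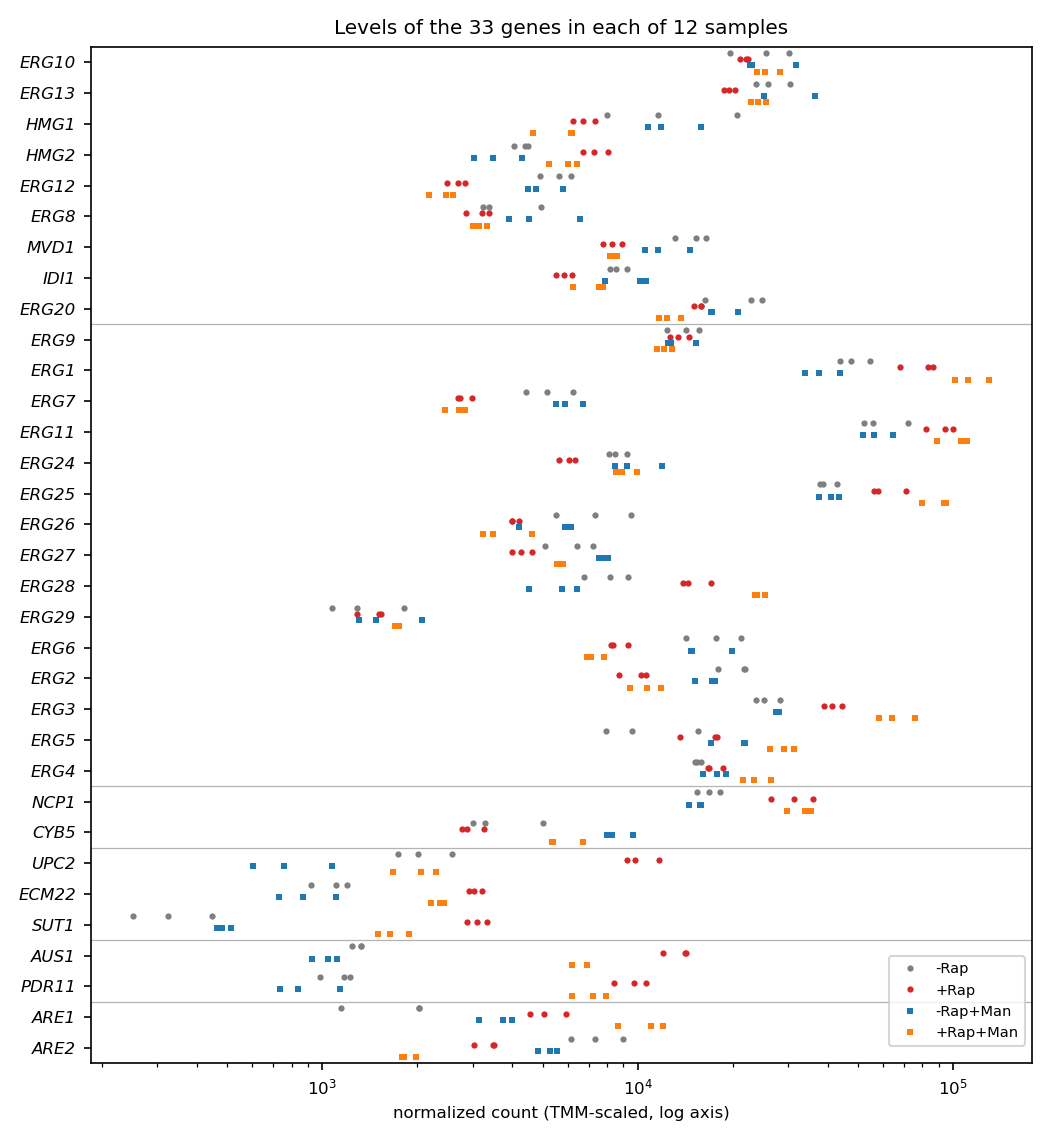
Normalized counts (horizontal log axis) of the 33 genes in each of the 12 samples, with genes in the order of the pathway and lines between roles. In both experiments the depleted samples of SUT1, AUS1 and PDR11 lie wholly to the right of their controls, and SUT1 had the lowest mean control level.

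Both uptake genes were upregulated in both experiments. AUS1, an ABC transporter that imports sterol, had 1329, 1326 and 1246 normalized counts in the -Rap samples and 12050, 14090 and 14260 in the +Rap samples. With mannose it had 1047, 928 and 1118 against 6922, 6909 and 6215. Every depleted sample was above every control sample, and in the depleted samples AUS1 was lower with mannose than without. The log2 change was 3.37 (SE 0.11, adjusted p = 2.3e-07, limma) in Flo+, a 10.3-fold increase, and 2.73 (SE 0.13, adjusted p = 1.8e-07, limma) in Flo-.

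PDR11, the partner transporter in sterol import, had 1228, 1169 and 986 normalized counts without and 8445, 10600 and 9726 with rapamycin in Flo+. In Flo- it had 1140, 733 and 836 against 7924, 7226 and 6209. The depleted samples again lay wholly above their controls, and the rise was close to the same size in both experiments. The log2 change was 3.09 (SE 0.13, adjusted p = 1.2e-06, limma) in Flo+ and 3.02 (SE 0.18, adjusted p = 1.5e-06, limma) in Flo-.

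Of the regulators, SUT1, a zinc cluster factor of hypoxic cells whose excess allows sterol uptake in air, had the lowest control level of any member in normalized counts. It had 325, 448 and 252 in the -Rap samples and 2875, 3328 and 3099 in the +Rap samples. In Flo- it had 514, 465 and 482 against 1881, 1643 and 1501. The depleted samples did not overlap the controls, and those of Flo- were all below those of Flo+. The log2 change was 3.21 (SE 0.20, adjusted p = 1e-05, limma) in Flo+ and 1.80 (SE 0.14, adjusted p = 6.3e-06, limma) in Flo-.

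UPC2, which encodes the sterol-sensing activator of uptake and synthesis genes, had 1745, 2018 and 2571 normalized counts in the -Rap samples and 9809, 9229 and 11700 in the +Rap samples. With mannose the values were 604, 757 and 1078 against 2054, 2302 and 1678. UPC2 was lower in every mannose sample than in its counterpart group without mannose, and the depleted samples of Flo- overlapped the control samples of Flo+. The log2 change was 2.29 (SE 0.16, adjusted p = 2.4e-05, limma) in Flo+ and 1.36 (SE 0.21, adjusted p = 0.00067, limma) in Flo-.

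ECM22, the paralog of UPC2, had 1106, 1202 and 922 normalized counts in the -Rap and 2920, 3037 and 3215 in the +Rap samples, and 731, 870.1 and 1104 against 2362, 2431 and 2213 with mannose. Controls and depleted samples did not overlap. Its log2 changes were 1.51 (SE 0.13, adjusted p = 5.7e-05, limma) and 1.42 (SE 0.16, adjusted p = 8.6e-05, limma), close to each other.

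**Figure D3:**
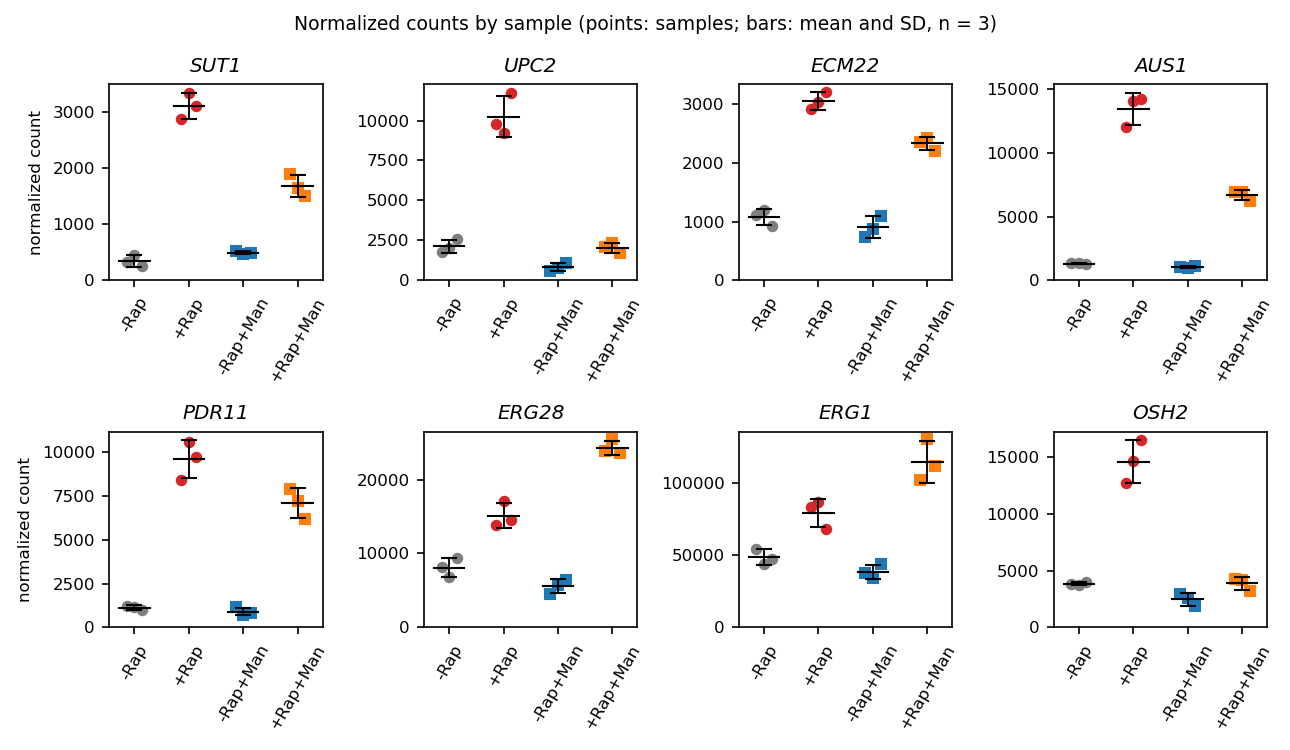
Normalized counts of 3 regulators, 2 transporters, ERG28, ERG1 and OSH2 by group (points are samples, bars the mean and SD, n = 3, vertical axes from 0). SUT1, UPC2, AUS1 and OSH2 were highest in +Rap samples, and ERG28 and ERG1 in +Rap+Man samples.

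The isozymes of steryl ester synthesis changed in opposite directions. ARE1, an acyl-CoA sterol acyltransferase, had 2024, 2029 and 1149 normalized counts in the -Rap and 4575, 5935 and 5041 in the +Rap samples, and 3990, 3142 and 3732 against 11060, 12000 and 8669 with mannose. ARE2, which makes most steryl ester in aerobic cells, had 8963, 6165 and 7327 against 3029, 3505 and 3486, and 5545, 4846 and 5285 against 1989, 1823 and 1795. ARE1 rose above its controls and ARE2 fell below its controls in both experiments, with no overlap. The log2 change of ARE1 was 1.62 (SE 0.23, adjusted p = 0.0011, limma) in Flo+ and 1.57 (SE 0.16, adjusted p = 5.4e-05, limma) in Flo-. That of ARE2 was -1.15 (SE 0.15, adjusted p = 8e-04, limma) and -1.45 (SE 0.12, adjusted p = 1.2e-05, limma). ARE1 overlaps YCR050C on the opposite strand, and the strand setting of the read counting is not given in the sources used here, so a part of its counts could belong to that gene.

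The ratio of ARE1 to ARE2 within a sample does not depend on the scaling between samples. It was 0.226, 0.329 and 0.157 in the -Rap samples and 1.51, 1.69 and 1.45 in the +Rap samples, and 0.72, 0.648 and 0.706 against 5.56, 6.58 and 4.83 with mannose. The mean log2 ratio shifted by 2.77 in Flo+ and 3.02 in Flo-, and ARE1 exceeded ARE2 in all 6 depleted samples and in none of the 6 controls. An exact permutation test, two-sided, gave p = 0.1 in each experiment (0.13 after Benjamini-Hochberg adjustment over 8 tests), and 0.1 is the smallest p that 3 against 3 samples allow.

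HMG1 and HMG2 encode the isozymes of HMG-CoA reductase, the rate-limiting step of the mevalonate pathway, of which Hmg1 serves aerobic cells. HMG1 had 20720, 11600 and 8023 normalized counts in the -Rap samples and 6716, 7329 and 6230 in the +Rap samples, and 15920, 11850 and 10780 against 6198, 6158 and 4646 with mannose. HMG2 had 4381, 4486 and 4062 against 6724, 8080 and 7280, and 4307, 3028 and 3488 against 6418, 6037 and 5249. HMG1 was spread widely among the -Rap samples, with replicate 1 highest, yet its depleted samples lay below and those of HMG2 above all controls in both experiments. HMG1 was downregulated in Flo-, with a log2 change of -1.14 (SE 0.19, adjusted p = 0.00097, limma), and stood at -0.88 (SE 0.30, adjusted p = 0.046, limma) in Flo+, short of the thresholds. HMG2 passed the adjusted p but not the fold, at 0.77 (SE 0.11, adjusted p = 0.0012, limma) and 0.75 (SE 0.16, adjusted p = 0.0042, limma).

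The ratio of HMG2 to HMG1 was 0.211, 0.387 and 0.506 in the -Rap samples and 1, 1.1 and 1.17 in the +Rap samples, and 0.271, 0.256 and 0.324 against 1.03, 0.98 and 1.13 with mannose. Every control sample held more HMG1 than HMG2 counts, and the depleted samples held nearly equal numbers of both. The shifts in mean log2 ratio were 1.65 and 1.89 (exact permutation p = 0.1 in each, adjusted p = 0.13). The pairs UPC2 to ECM22 and AUS1 to PDR11 shifted less, by 0.78 and 0.28 in Flo+ (exact p = 0.1 each, adjusted p = 0.13) and by -0.06 and -0.30 in Flo- (exact p = 0.6 and 0.3, adjusted p = 0.6 and 0.34). The longest run of identical bases between the genes of a pair was 17 for ARE1 and ARE2, 23 for HMG1 and HMG2, 24 for AUS1 and PDR11 and 29 for UPC2 and ECM22.

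**Figure D4:**
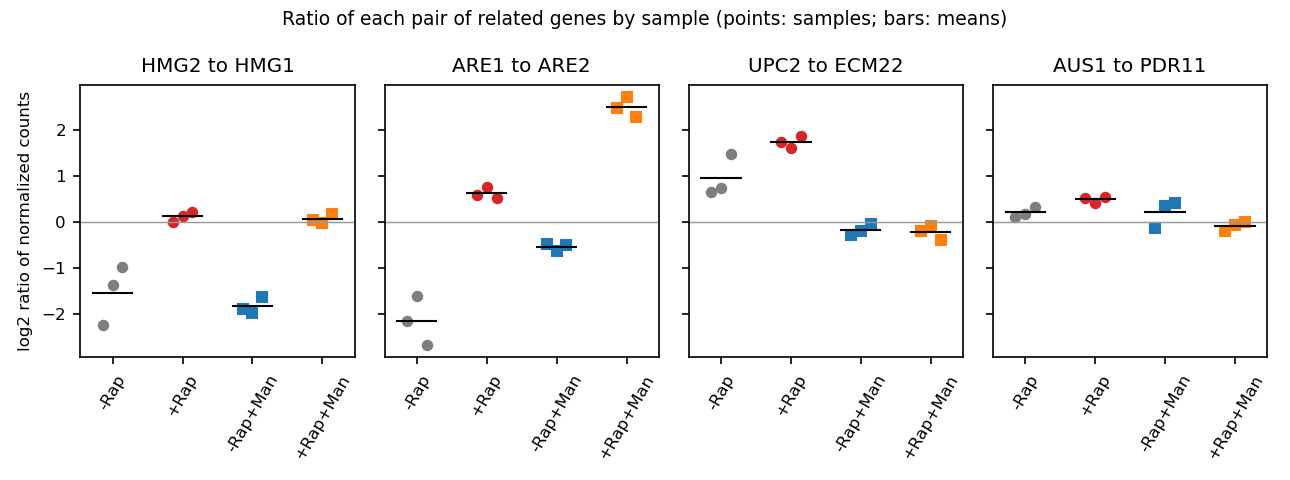
Log2 ratio of the normalized counts of 4 pairs of related genes in each sample (points; bars are means of 3 samples). The HMG2 to HMG1 and ARE1 to ARE2 ratios were higher in all depleted samples than in all controls of the same experiment.

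The 24 synthesis enzymes, a set that includes the scaffold gene ERG28 and ERG29, did not move together. Their median log2 change was -0.35 in Flo+ and -0.17 in Flo-, against -0.02 and -0.04 over all genes tested. In Flo+ 3 were downregulated and 0 upregulated, also 0 with voom weights, where 2.08% and 11.0% of all genes were. At an unadjusted p under 0.05 (limma), 7 were higher and 12 lower. The share of all genes at that unadjusted p was not counted. In Flo- 4 were upregulated (ERG1, ERG25, ERG28 and ERG3) and 4 downregulated (HMG1, ERG12, ERG7 and ERG6), against 14.8% and 2.59% of all genes. At an adjusted p of at most 0.01 and any size of change, 5 enzymes were higher and 8 lower in Flo+, where 15.5% of genes were higher and 9.89% lower. In Flo- the counts were 6 and 5, against 20.0% and 15.5% of genes.

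In the mevalonate part of the pathway, 8 of the 9 enzymes had a log2 change below 0 in Flo+, the exception being HMG2. In Flo- both HMG2 and ERG10 were above 0. The median over the 9 was -0.44 in Flo+ and -0.51 in Flo-. Over all genes the median was also below 0, at -0.02 and -0.04. By the thresholds 1 of the 9 was downregulated in Flo+ and 2 in Flo-, against 2.08% and 2.59% of all genes. ERG12, the mevalonate kinase gene, had 6129, 4911 and 5638 normalized counts in the -Rap and 2486, 2842 and 2697 in the +Rap samples, and 5783, 4487 and 4753 against 2603, 2463 and 2186 with mannose. Depleted samples were below controls in both experiments. The log2 change was -1.05 (SE 0.12, adjusted p = 0.00036, limma) and -1.02 (SE 0.14, adjusted p = 0.00043, limma). MVD1 (mevalonate pyrophosphate decarboxylase) and IDI1 (isopentenyl diphosphate isomerase) were lower in Flo+ without reaching the fold, at -0.84 (adjusted p = 0.0013) and -0.56 (adjusted p = 0.0041). ERG10, the thiolase at the head of the pathway, ERG13, ERG8 and ERG20 ranged between -0.44 and -0.17 in Flo+ and between -0.60 and 0.04 in Flo-, none past an adjusted p of 0.01.

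The enzymes that consume oxygen stood above 0 in both experiments, as did HMG2, ERG28, ERG29 and ERG4. ERG28, which is not an oxygen user, had the highest change of all 24, at 0.91 in Flo+ and 2.17 in Flo-. The oxygen users are ERG1 (squalene epoxidase), ERG11 (lanosterol demethylase), ERG25 (sterol methyl oxidase), ERG3 and ERG5 (sterol desaturases), and the grouping was made after their values were seen. Their median log2 change was 0.63 in Flo+ and 1.16 in Flo-, while the other 19 synthesis enzymes had medians of -0.52 and -0.42. ERG1 had 54350, 43900 and 47340 normalized counts in the -Rap and 83080, 86220 and 67800 in the +Rap samples, and 37490, 33960 and 43730 against 101800, 130200 and 111200 with mannose. Depleted samples were above controls in both, with the highest levels in +Rap+Man. The log2 change was 0.70 (SE 0.14, adjusted p = 0.0054, limma) in Flo+ and 1.60 (SE 0.17, adjusted p = 7.9e-05, limma) in Flo-.

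ERG3 had 28340, 25190 and 23770 against 41260, 44610 and 39050 normalized counts in Flo+ and 27410, 27780 and 28110 against 64120, 75670 and 58140 in Flo-. Its log2 changes were 0.70 (SE 0.12, adjusted p = 0.0025, limma) and 1.27 (SE 0.15, adjusted p = 0.00014, limma), with no overlap of the groups. ERG11 had 72130, 55770 and 52280 against 94590, 100100 and 81830 in Flo+ and 52000, 56130 and 64350 against 105900, 110700 and 88910 in Flo-. It also did not overlap its controls, but its change stayed under 1, at 0.63 (adjusted p = 0.013) and 0.85 (adjusted p = 0.0023). ERG5 had log2 changes of 0.62 (adjusted p = 0.072) and 0.55 (adjusted p = 0.016), the second of which was below 0 under total-count scaling.

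Subunits of the complex that removes methyl groups from the sterol ring had changes of opposite sign. ERG25, its oxygen-using subunit, had 38620, 37850 and 42770 normalized counts in the -Rap and 57900, 70880 and 56130 in the +Rap samples, and 41140, 37530 and 43490 against 93370, 95260 and 79450 with mannose. ERG28, the scaffold that tethers the complex to the endoplasmic reticulum, had 8187, 6768 and 9337 against 13880, 17040 and 14470, and 4527, 5754 and 6441 against 23850, 25420 and 23580. Both lay above their controls in both experiments, with the highest levels in the +Rap+Man samples. The log2 change of ERG25 was 0.63 (SE 0.13, adjusted p = 0.006, limma) in Flo+ and 1.16 (SE 0.15, adjusted p = 0.00028, limma) in Flo-, and that of ERG28 0.91 (SE 0.15, adjusted p = 0.0022, limma) and 2.17 (SE 0.14, adjusted p = 2.6e-06, limma). ERG26, the dehydrogenase of the complex, was at -0.83 (adjusted p = 0.009) and -0.48 (adjusted p = 0.052), and ERG27, its keto reductase, at -0.52 (adjusted p = 0.023) and -0.42 (adjusted p = 0.012).

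Of the remaining late enzymes, ERG6, the sterol methyltransferase that gives ergosterol its fungal side chain, had 21260, 14200 and 17740 against 9356, 8242 and 8330 normalized counts in Flo+ and 19910, 14900 and 14810 against 7844, 7100 and 6911 in Flo-. It fell below its controls in both, by log2 changes of -1.02 (SE 0.16, adjusted p = 0.0017, limma) and -1.14 (SE 0.16, adjusted p = 0.00036, limma). ERG2, a sterol isomerase, had 21820, 17920 and 21830 against 10250, 10630 and 8759 in Flo+ and 15170, 17270 and 17540 against 10740, 11840 and 9479 in Flo-. It was downregulated in Flo+ (-1.05 (SE 0.13, adjusted p = 0.00055, limma)) and lower but short of the fold in Flo- (-0.61 (SE 0.13, adjusted p = 0.0042, limma)). ERG7, lanosterol synthase, was downregulated in Flo-, with 6711, 5525 and 5891 against 2448, 2725 and 2845 and a log2 change of -1.15 (SE 0.14, adjusted p = 0.00015, limma). In Flo+ it had 6233, 5149 and 4422 against 2979, 2734 and 2692 and a log2 change of -0.90 (adjusted p = 0.0019).

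ERG24, a sterol reductase, was lower in Flo+ at -0.52 (adjusted p = 0.0062) and had -0.07 (adjusted p = 0.72) in Flo-. ERG9, the squalene synthase gene at the branch point to sterols, had -0.05 and -0.12, and overlapped its controls in both experiments. ERG29, which is needed for sterol synthesis, had 0.09 and 0.15, and ERG4, the final reductase, 0.17 and 0.45, all with adjusted p above 0.01. Under total-count scaling the changes of ERG4 and ERG29 had the opposite sign.

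The electron donors differed. NCP1, the reductase that feeds electrons to the P450 enzymes and to Erg1, had 16820, 18300 and 15420 normalized counts in the -Rap and 26520, 35990 and 31340 in the +Rap samples, and 15860, 14540 and 15740 against 34010, 35430 and 29720 with mannose. The depleted samples were above all controls, and the log2 change was 0.89 (SE 0.14, adjusted p = 0.0019, limma) in Flo+ and 1.13 (SE 0.13, adjusted p = 0.00014, limma) in Flo-, past both thresholds in the latter. CYB5, cytochrome b5, an electron donor to sterol desaturation, had 5019, 3008 and 3279 against 3265, 2886 and 2775, and 7975, 9643 and 8297 against 5357, 6708 and 5411. Its log2 changes were -0.30 (adjusted p = 0.23) and -0.54 (adjusted p = 0.011).

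**Figure D5:**
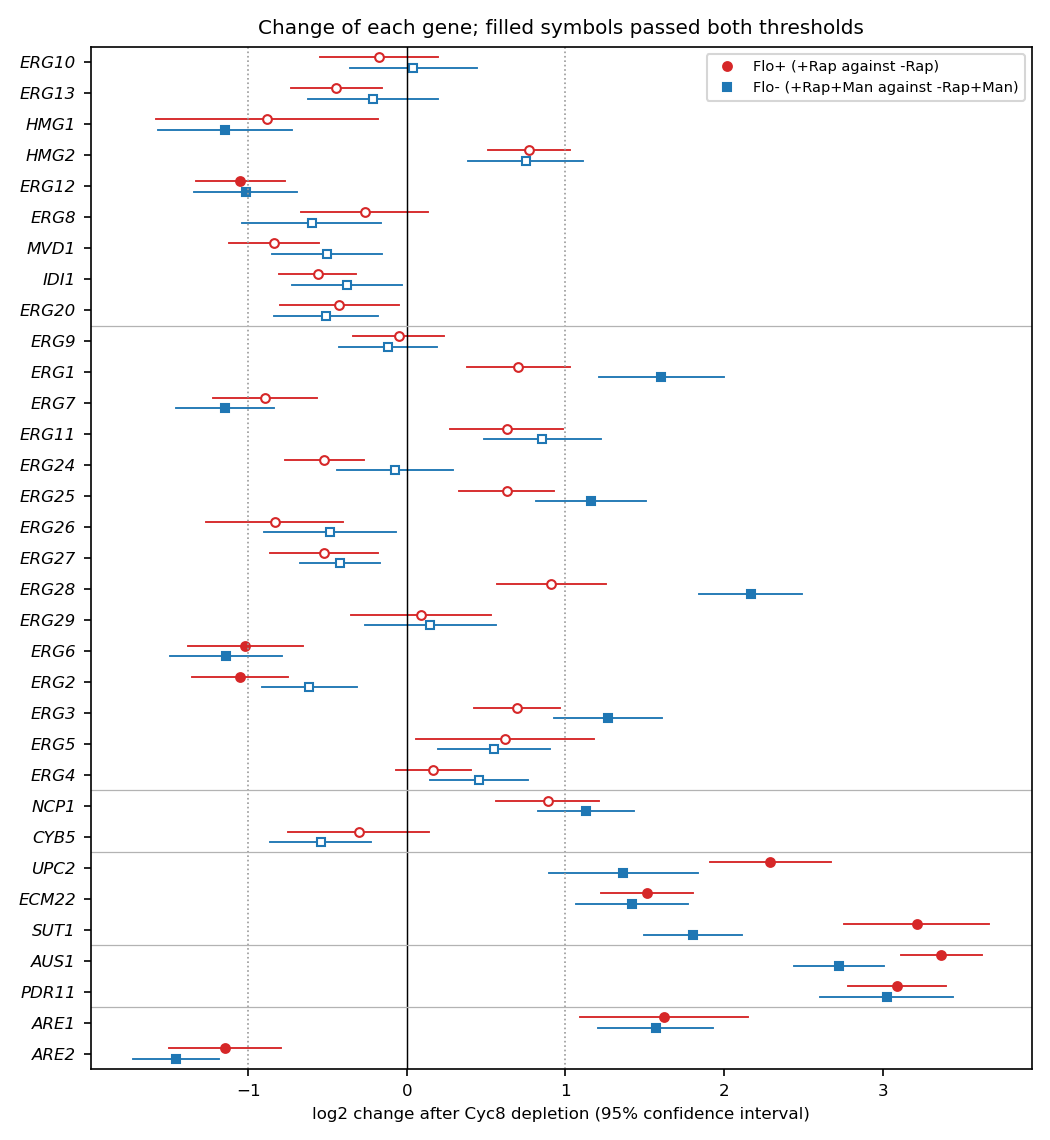
Log2 change of each of the 33 genes after Cyc8p depletion in Flo+ and Flo-, with 95% confidence intervals, on the log2(normalized count + 2) scale (filled symbols passed an adjusted p of 0.01 and a log2 change of 1, dotted lines). All 3 regulators, both transporters and ARE1 lie right of 1 in both experiments, and synthesis genes lie on both sides of 0.

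Some downregulated calls lay close to the fold threshold and depended on single samples. In Flo+ the downregulated members numbered 2 without -Rap replicate 1 (where ERG12 was at -0.97 and ERG6 at -0.88) or without +Rap replicate 3 (where ERG6 had an adjusted p of 0.012 and ERG2 was at -0.98), and 6 without -Rap replicate 3. In Flo- they numbered 2 without -Rap+Man replicate 1, where HMG1 was at -0.96, ERG12 at -0.89 and ERG6 at -0.98. The members upregulated in either experiment stayed so in each of the 6 fits that left out 1 of its samples.

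Within a sample, levels per kb of coding sequence can be compared between genes. In the -Rap samples the level ran from 42740 ± 2840 normalized counts per kb (SD, n = 3) for ERG25 to 266 ± 29.8 for PDR11, and the 5 regulator and uptake genes held the 5 lowest places. ERG25, ERG11 and ERG1 held the 3 highest places in all 4 groups. In the -Rap samples ERG11, at 37700 ± 6660, and ERG1, at 32550 ± 3570, did not differ beyond their spread. In the +Rap samples UPC2 (3737 ± 472), SUT1 (3445 ± 252) and AUS1 (3217 ± 294) exceeded HMG1 (2135 ± 174) and ARE2 (1732 ± 140.0), which had been above them in the -Rap samples. In the +Rap+Man samples UPC2, at 734 ± 115, was the lowest member.

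To ask whether the response depended on flocculation, the +Rap to -Rap ratio of Flo- was compared with that of Flo+ in a fit of all 12 samples. Of 6403 genes, 2.61% had a higher ratio in Flo- and 1.16% a lower one by the thresholds above. Of the members, 1 had a higher ratio (ERG28) and 1 a lower ratio (SUT1). The difference was 1.23 (SE 0.22, adjusted p = 0.0036, limma) for ERG28 and -1.44 (SE 0.25, adjusted p = 0.0032, limma) for SUT1. For the 24 synthesis enzymes the median difference was 0.17, and for the 5 uptake and regulator genes it was -0.67, beside -0.01 over all genes.

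Several members had sizeable differences that missed the threshold. AUS1 had -0.67 (95% confidence interval -1.01 to -0.33, adjusted p = 0.015) and UPC2 -0.95 (95% confidence interval -1.59 to -0.32, adjusted p = 0.049), both lower in Flo-. ERG1 had 0.87 (95% confidence interval 0.40 to 1.35, adjusted p = 0.021) and ERG3 0.55 (95% confidence interval 0.16 to 0.93, adjusted p = 0.06), both higher in Flo-. PDR11 (-0.09, 95% confidence interval -0.60 to 0.42) and ECM22 (-0.12, 95% confidence interval -0.58 to 0.34) had differences near 0. For ARE1 the interval was -0.72 to 0.57, and for ARE2 -0.74 to 0.08.

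The calls for ERG28 and SUT1 rested on the full set of samples. ERG28 had an adjusted p of 0.015 without +Rap replicate 1, 0.014 without +Rap replicate 3 and 0.012 without +Rap+Man replicate 2, and missed the threshold without +Rap+Man replicate 3 as well. SUT1 had 0.012 without +Rap replicate 2, +Rap replicate 3 or +Rap+Man replicate 3, and missed the threshold without +Rap+Man replicate 2. The size of the difference stayed between 1.09 and 1.35 for ERG28 and between -1.65 and -1.24 for SUT1 over the 12 fits. With total-count scaling that of ERG28 was 0.98, under the fold threshold. The paper lists SUT1 among genes upregulated more with flocculation, and also measured it by RT-qPCR in both experiments.

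Mannose itself was addressed by comparing -Rap+Man with -Rap samples, which also differ in run and read type, so that mannose cannot be told apart from these. Of 6403 genes 11.0% were higher and 10.6% lower. Of the members, CYB5 (1.23 (SE 0.18, adjusted p = 8.4e-05, limma)) and ARE1 (1.10 (SE 0.21, adjusted p = 8e-04, limma)) were higher with mannose, and UPC2 (-1.40 (SE 0.21, adjusted p = 0.00012, limma)) was lower. ARE1 was at 0.83 without -Rap replicate 3. Of the 24 synthesis enzymes ERG5 had the largest difference, 0.92 (adjusted p = 0.0031). ERG28 was lower in the mannose controls, at -0.54 (adjusted p = 0.01, limma), and SUT1 higher, at 0.55 (adjusted p = 0.02, limma). Both were under the fold threshold, and neither gene overlapped between the control groups. A difference in ratios is the difference between the depleted groups less that between the control groups. In this subtraction the control values of ERG28 and SUT1 make the difference larger. A shift of run or read type shared by both groups of an experiment would cancel, and the source of the control differences was not tested.

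Genes next to the pathway were taken from a list of 38 in sterol storage and transfer, isoprenoid branches, oxygen regulation, heme and unsaturated fatty acid. The list was chosen with earlier results of these data known, so its counts are not an independent sample of genes. In Flo+ 6 were upregulated and 0 downregulated, where 11.0% and 2.08% of all genes were. In Flo- 9 were upregulated and 0 downregulated, against 14.8% and 2.59% of all genes. The medians over the list were 0.37 and 0.10. With voom weights the counts were 6 and 0 in Flo+ and 9 and 0 in Flo-. At an adjusted p of at most 0.01 and any size of change, 7 were higher and 0 lower in Flo+, where 15.5% of genes were higher and 9.89% lower. In Flo- 14 were higher and 3 lower by this rule, against 20.0% and 15.5% of genes. At an unadjusted p under 0.05, 18 were higher and 5 lower in Flo+, and 16 higher and 12 lower in Flo-. The share of all genes at that unadjusted p was not counted. HES1, PRY1, PRY2 and HEM13 were upregulated in both. HES1, an oxysterol-binding protein gene, had 44.5, 37.4 and 45.6 normalized counts in the -Rap and 559, 446 and 382 in the +Rap samples (log2 change 3.36 (SE 0.18, adjusted p = 5.1e-06, limma)), and 40.9, 51.3 and 52.8 against 317, 205 and 236 with mannose (2.36 (SE 0.22, adjusted p = 3e-05, limma)). HEM13, whose product carries out an oxygen-using step of heme synthesis, had 4225, 9443 and 4721 against 40370, 49530 and 46240 (2.98 (SE 0.28, adjusted p = 0.00012, limma)) and 3561, 2397 and 5611 against 23310, 24820 and 19960 (2.67 (SE 0.27, adjusted p = 4.5e-05, limma)).

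Depleted samples of HES1 and HEM13 were above all of their controls. OLE1, listed with HEM13 under heme and unsaturated fatty acid, changed in the other direction without a call. Its log2 change was -0.87 (adjusted p = 0.018, limma) in Flo+, below all controls, and -0.21 (adjusted p = 0.67, limma) in Flo-, where the groups overlapped. PRY1 and PRY2, which encode secreted sterol-binding proteins, had log2 changes of 2.96 and 1.50 in Flo+ and 2.94 and 1.60 in Flo- (adjusted p at most 0.0013, limma). OSH2 and LAM4, a sterol-binding and a sterol-transfer protein gene, were upregulated in Flo+ at 1.92 and 1.36, and had 0.69 (adjusted p = 0.015) and 0.41 (adjusted p = 0.082) in Flo-. The ratio of OSH2 was lower in Flo- by a tested difference of -1.25 (SE 0.24, adjusted p = 0.0057, limma), the only 1 of the 38 past both thresholds. This call was lost in 8 of the 12 fits that left out 1 sample, those without -Rap replicate 1 or 2, +Rap replicate 2 or 3, -Rap+Man replicate 1 or 2, or +Rap+Man replicate 2 or 3, with adjusted p up to 0.021 and differences between -1.44 and -1.11 over the 12 fits. In Flo- YEH1 (steryl ester hydrolase), NPC2 (vacuolar sterol carrier), SRT1 (a prenyltransferase), ROX1 (the hypoxic repressor) and SUT2 (the paralog of SUT1) were upregulated, by 1.11, 1.05, 1.33, 1.18 and 1.20. Their changes in Flo+ were 1.01, 0.37, 0.85, 0.40 and 0.66, and the differences between the experiments did not pass the thresholds for these 5. With total-count scaling none of the 5 kept its call in Flo- (0.49, 0.43, 0.74, 0.57 and 0.59), and PRY2 was at 0.98. Leaving out 1 sample also ended the call of NPC2 (without -Rap+Man replicate 2 or 3, or +Rap+Man replicate 1, at 0.89 to 0.97) and of SRT1 (in all fits but that without +Rap+Man replicate 2, with adjusted p up to 0.045).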

How the data were processed

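The deposited raw counts per gene (12 samples, 6775 genes) were used. The authors had trimmed reads with fastp 0.20.0, aligned them with STAR 2.7.3 to an Ensembl S288c reference and normalized the counts with DESeq2. Libraries were strand-specific and depleted of rRNA, and the counting tool, its strand setting and its handling of reads with several positions are not given in the sources used here. A second deposited table held the authors' size-factor scaled counts, used here for gene symbols only, and the authors' own comparisons, which were not used.

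Samples were grouped by their labels. Genes were tested if 3 or more samples held 10 counts, rescaled to the median depth, and the total was 15 or more. The test was limma 3.58.1 in R 4.3.3 (moderated test with an intensity trend) on log2(count + 2) after TMM scaling, with a trim of 0.3 on log ratios and 0.05 on levels. Adjusted p-values cover all genes tested, and the call was an adjusted p of at most 0.01 with a log2 change of 1 or more in size. The steps were tested on simulated data. No library pair of a group agreed within sampling noise. Gene ratios were compared by an exact permutation test, and motifs were counted in RefSeq R64. All members, the related genes past both thresholds, OLE1 and the pairs were named. The members and lists were chosen with earlier results of these data known. Labels call the replicates biological without naming their cultures, and the paper's methods describe cultures divided in 2, so p-values measure the spread between these samples. Same-numbered samples deviated together in Flo- (correlations 0.439, 0.174 and 0.204) and more weakly in Flo+, which the fit without a block leaves out. Alternatives changed the scaling, filter, added count, weights, p threshold, block and samples. Samples held between 26125728 and 51088194 counts, and no member fell below 243 raw counts in any sample, which limits its counting error.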

Additional observations from a re-analysis of the deposited data

Results flagged for a closer look

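The +Rap to -Rap ratio differed between the experiments, by the test of the difference itself (limma, adjusted over 6403 genes), for ERG28, SUT1 and OSH2. For ERG28 the log2 ratio was higher in Flo- by 1.23 (adjusted p = 0.0036), for SUT1 it differed by -1.44 (adjusted p = 0.0032) and for OSH2 by -1.25 (adjusted p = 0.0057), that is, lower in Flo-. None of the 3 calls held in every fit that left out 1 sample, where the largest adjusted p of OSH2 was 0.021. The control levels also differed between the experiments, by -0.54 for ERG28, 0.55 for SUT1 and -0.66 for OSH2 (with mannose against without). In the subtraction these control differences make the differences in ratios of ERG28 and SUT1 larger and that of OSH2 smaller. Their source was not tested, and a shift shared by both groups of an experiment would cancel. Run and read type differ along with flocculation and cannot be told apart from it.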

How the results depend on the processing

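Of the values of members and related genes over all alternatives, 1527 kept their direction and their side of the thresholds, 49 lost the call, 19 gained it and 21 changed sign. Total-count scaling, added after the data were seen, moved most. In Flo+ it gave 499 genes and 8 members downregulated (127 and 4 with TMM), and ERG29 and ERG4 at -0.25 and -0.18. In Flo- it gave 595 genes up and 1782 down (937 and 164 with TMM) and 4 members up and 12 down (11 and 5 with TMM), and ERG10, ERG29, ERG5, ERG4 and LAM4 had -0.58, -0.47, -0.068, -0.16 and -0.20. In the difference between the experiments, 210 genes had a lower ratio in Flo- (74 with TMM) and 0 members a higher one, ERG28 having lost its call. With median-of-ratios factors ERG12 in Flo- was at -0.97. At an adjusted p of 0.05 the difference counted 299 genes higher and 135 lower (167 and 74 at 0.01), and a filter asking for 10 counts in each library left 445 genes higher with mannose (703 otherwise).

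Leaving out 1 sample in turn, downregulated genes in Flo+ ranged from 71 to 242 and downregulated members from 2 to 6 in Flo+ and 2 to 5 in Flo-. Genes with a higher ratio in Flo- ranged from 107 to 184 and those with a lower ratio from 26 to 90, and members from 0 to 1 in each direction. Members higher with mannose ranged from 1 to 3. Changes with no call crossed 0 for ERG9 (-0.14 to 0.025) and ERG29 (-0.083 to 0.30) in Flo+, for ERG10 (-0.055 to 0.22), ERG24 (-0.19 to 0.088) and ERG29 (-0.0037 to 0.36) in Flo-, and for the differences of ECM22 (-0.26 to 0.035), PDR11 (-0.23 to 0.089) and ARE1 (-0.22 to 0.19). The shift of UPC2 to ECM22 in Flo- ranged from -0.13 to 0.030. Beyond the construction of each setting, the cause was not tested.

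With the replicate number as a block, member calls were 6 up and 4 down in Flo+, 11 and 5 in Flo- and 1 and 1 in the difference, the same genes as without it, and all genes gave 710 and 145, 978 and 168, and 223 and 94. Among the related genes only YEH1 in Flo+ newly passed (1.01, adjusted p = 0.0031). Same-numbered Flo+ samples correlated at 0.143, 0.0956 and 0.165, weakly but above all pairs of differing number (-0.166 to 0.0619). The paper's methods describe divided cultures, and the labels do not name them. With 3 replicates a group, the spread between samples and not the depth limits the precision for the members.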
